A study of Homo sapiens with 16 samples.

Results

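The genes described here are 9 members of the bone morphogenetic protein (BMP) pathway: ID1, ID2, ID3 and ID4, the inhibitory SMAD genes SMAD6 and SMAD7, the ligand genes BMP4 and BMP7, and BAMBI. They were chosen by name, with earlier results of these data known, and the rows of all 9 were present among the 26364 genes of both count tables. Bulk RNA-seq had been run on Ishikawa, an established line from a human endometrial adenocarcinoma, and on T-47D, one from a human breast carcinoma. Both lines had been kept for 3 days by the labels, and 5 by the study's methods, in phenol red-free medium with charcoal-stripped serum and then received 10 nM 17β-estradiol (E2), the ligand of the estrogen receptor, for 2, 4 or 8 h, or vehicle as the 0 h control. Each of the 8 groups held 2 libraries, which gave 16 in all. Every group of a line came from 1 established cell line, and nothing in the labels says that the replicates were separate cultures, so the p-values measure only the spread between these libraries. Whether E2 changed these genes within 2 to 8 h, and whether it did so alike in the 2 lines, are the questions that the groups allow.

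BMPs are secreted ligands of the TGF-β superfamily. They bring together type I and type II receptor kinases, which phosphorylate SMAD1, SMAD5 and SMAD9, and these enter the nucleus with SMAD4 and bind target genes. The ID genes are among the most direct of these targets. ID proteins have a helix-loop-helix domain without the basic stretch that contacts DNA, so they hold E proteins such as TCF3 away from DNA and are best known for holding back differentiation. SMAD6, SMAD7 and BAMBI, a receptor-like protein without a kinase domain, are feedback inhibitors of the pathway and are themselves induced by it. In the endometrium and the breast, BMP ligands act in the exchange between epithelium and stroma.

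Library totals ran from 41177912 to 64148903 counts, and levels are given as CPM, counts per 1000000 of the TMM-scaled library size. Of all counts from 1 to 10, between 71.2% and 74.6% were even, and whether each count is 1 fragment was not tested. GREB1, a direct estrogen target taken as a check that E2 had acted, was higher at each time in both lines, with log2 fold changes of 0.63, 1.62 and 1.65 for Ishikawa and 1.78, 2.01 and 2.15 for T-47D. The summed level of 5 breast luminal marker genes was 3806 to 4311 CPM in T-47D cells and 176 to 208 in Ishikawa cells, and that of 5 endometrial epithelial genes was 362 to 487 CPM in Ishikawa cells and 0.416 to 0.945 in T-47D cells, where SOX17 and EMX2 had no counts. Endothelial markers summed to at most 8.74 CPM and leukocyte markers to at most 2.05 CPM, whereas 5 fibroblast genes summed to 157 to 284 CPM in Ishikawa cells and 76.0 to 101 in T-47D cells, mostly COL1A1. Of 3 fibroblast genes tested in Ishikawa cells, 2 were lower at 4 h and at 8 h, beside 6.60% and 10.1% of all genes. Of 4 tested in T-47D cells, 3 were lower at 8 h, beside 14.3% of all genes. The part of these genes in the results was not tested. The Ishikawa libraries labelled 4 h and 8 h hardly differed, since 2 of 15787 genes (0.0127%) passed between them. Nor did replicates of a label resemble each other most, by r of deviations from the mean of these 4 libraries. It was -0.43 within 4 h and -0.35 within 8 h, and from -0.40 to -0.17 across the labels. The reason was not tested, and it limits what the separate Ishikawa 4 h and 8 h values show. Values with the 4 libraries joined are given beside the members' 4 h and 8 h results.

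Promoter sequences are shown for 4 members, ID1, ID3 and SMAD6 because they were lower at 2 h in both lines, and BAMBI because its change differed most between the lines. RefSeq promoters of build GRCh38.p14 were found for 8 of the 9 members at 12 start sites, with no entry for BMP7, and each was matched exactly once in GRCh37, the build of the counts. Each line below holds the 250 bases before the start, 5′ to 3′ on the strand of the gene. They lie at chr20:30192842-30193091 (plus strand) for ID1, chr1:23885993-23886242 (minus strand) for ID3, chr15:66994324-66994573 (plus strand) for SMAD6 and chr10:28966200-28966449 (plus strand) for BAMBI. Capitals mark GGTCA or its reverse complement TGACC, which form the arms of the estrogen response element, the CCAAT box (CCAAT or ATTGG), the TATA box (TATAAA or TTTATA) and GGCGCC, a GC-rich sequence that BMP-activated SMADs can bind.
ID1: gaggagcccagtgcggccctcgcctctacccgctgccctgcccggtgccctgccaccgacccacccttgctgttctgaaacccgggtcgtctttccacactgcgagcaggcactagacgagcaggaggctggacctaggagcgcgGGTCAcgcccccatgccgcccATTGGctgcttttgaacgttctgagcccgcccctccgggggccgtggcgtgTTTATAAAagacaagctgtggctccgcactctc
ID3: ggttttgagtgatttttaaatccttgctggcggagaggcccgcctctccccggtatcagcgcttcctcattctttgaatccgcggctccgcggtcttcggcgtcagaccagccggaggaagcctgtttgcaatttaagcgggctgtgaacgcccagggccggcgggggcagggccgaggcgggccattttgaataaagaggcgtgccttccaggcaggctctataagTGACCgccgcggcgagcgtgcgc
SMAD6: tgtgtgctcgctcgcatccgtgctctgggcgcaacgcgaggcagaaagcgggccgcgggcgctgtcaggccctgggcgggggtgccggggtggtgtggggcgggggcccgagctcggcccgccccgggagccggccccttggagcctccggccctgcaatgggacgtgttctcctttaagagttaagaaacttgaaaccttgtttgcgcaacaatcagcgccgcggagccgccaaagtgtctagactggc
BAMBI: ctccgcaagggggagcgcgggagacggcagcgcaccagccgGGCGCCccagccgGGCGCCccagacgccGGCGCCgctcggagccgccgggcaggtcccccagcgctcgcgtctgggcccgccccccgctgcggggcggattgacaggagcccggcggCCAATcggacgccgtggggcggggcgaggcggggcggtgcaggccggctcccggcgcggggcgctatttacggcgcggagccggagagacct
The ID1 promoter held 1 GGTCA with its first base 105 bases before the start, 1 CCAAT box at 84 bases, and TTTATA and TATAAA overlapping at 33 and 31 bases. ID3 held 1 TGACC at 23 bases, BAMBI held GGCGCC 3 times, at 209, 196 and 181 bases, with 1 CCAAT box at 92, and SMAD6 held none of these letters. Among all 35116 RefSeq promoters, windows of the same length held GGTCA in 32.6%, CCAAT in 32.0%, GGCGCC in 16.4% and TATAAA in 10.7%, on either strand. GGTCA thus occurred in 2 of the 4 promoters shown, but these were chosen by their change with E2. Their share therefore cannot be set against the 32.6%. Among the 12 start sites of the 8 members, GGTCA also lay before start sites 2 and 3 of SMAD7, at 127 and 62 bases. SMAD7 did not pass at any time in either line. No start site of ID2, ID4, BMP4, SMAD6 or BAMBI held it, and ID2, BMP4, SMAD6 and BAMBI were lower in T-47D cells. No binding was measured here.

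At 0 h, the 2 lines differed in the level of all 9 members by the quasi-likelihood test of edgeR, with p-values adjusted by Benjamini-Hochberg over 17090 genes. Of these genes 39.5% were higher in T-47D cells and 42.4% lower, so a line difference was common. ID1, ID4, SMAD6 and SMAD7 were lower in T-47D cells, and ID2, ID3, BMP4, BMP7 and BAMBI were higher. The line, its culture, its RNA handling and its sequencing cannot be told apart here, nor, in bulk RNA, fewer cells of a type and less RNA per cell.

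The largest baseline differences were in the ligands and in BAMBI. BAMBI stood at 0.956 and 0.386 CPM in the Ishikawa libraries and at 154 and 149 CPM in the T-47D libraries, a log2 difference of 7.89 (SE 0.15, adjusted p = 1.49e-20). BMP4, a ligand that patterns mesoderm and epithelium, stood at 1.54 and 1.80 CPM in Ishikawa cells and at 39.2 and 38.6 in T-47D cells, a log2 difference of 4.60 (SE 0.19, adjusted p = 4.75e-15). For BMP7, a ligand known from kidney and bone development, the T-47D libraries held 444 counts at 0 h and the Ishikawa libraries 1, a ratio of 473 with a 95% interval for counting error of 84.5 to 18729. The interval takes each count as an independent fragment, which was not tested, and would be too narrow otherwise. This 1 Ishikawa count was the only BMP7 count in all 8 Ishikawa libraries, so no change with E2 was detectable there.

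Within the ID family the lines ranked the members differently. ID4 was 65.3 ± 5.44 CPM (SD, n = 2) in Ishikawa cells against 3.75 ± 1.04 in T-47D cells, a log2 difference of -4.06 (SE 0.11, adjusted p = 7.45e-18). ID1 was 280 ± 12.2 CPM in Ishikawa cells against 66.4 ± 4.54 in T-47D cells, whereas ID3 was 50.7 ± 2.66 and 109 ± 5.60 CPM and ID2 10.3 ± 1.06 and 26.3 ± 1.74 CPM. SMAD6 (32.4 ± 0.588 against 8.38 ± 1.66 CPM) and SMAD7 (67.3 ± 1.10 against 13.8 ± 0.687 CPM) were both higher in Ishikawa cells. Levels of different genes can be set side by side only per length, here CPM per kb of the union of exons. On that scale at 0 h, ID1 stood first in Ishikawa cells at 227 ± 9.86, then ID3 at 33.9 ± 1.78, followed by SMAD7 at 17.1 ± 0.280 and ID4 at 16.9 ± 1.40, which did not differ beyond their spread. ID2 (4.66 ± 0.480), SMAD6 (3.78 ± 0.0687), BMP4 (0.540 ± 0.0597) and BAMBI (0.314 ± 0.188) came after them, and BMP7 was last. In T-47D cells, ID3 at 72.6 ± 3.74 and BAMBI at 70.9 ± 1.48 CPM per kb did not differ beyond their spread, and ID1 at 53.8 ± 3.68 was below both. BMP4 (12.6 ± 0.145) and ID2 (11.9 ± 0.788) came next and did not differ beyond their spread either, ahead of SMAD7 (3.51 ± 0.174), with SMAD6 (0.979 ± 0.195), ID4 (0.968 ± 0.269) and BMP7 (0.954 ± 0.0347) lowest. Per kb of the longest transcript, ID3 (114) stood above BAMBI (80.5) there, and BMP7 (1.29) above ID4. In Ishikawa cells SMAD7 (20.1) then stood above ID4, and SMAD6 (6.23) above ID2 (5.05).

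**Figure D1:**
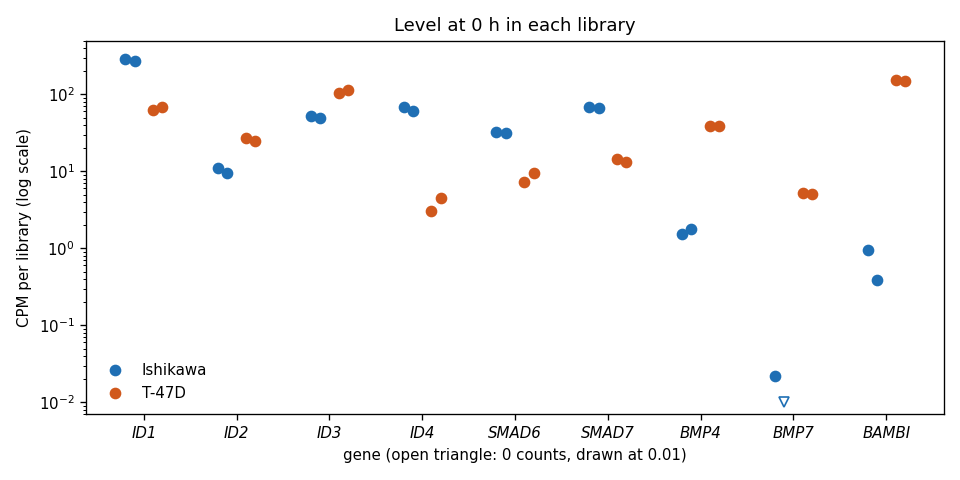
CPM of the 9 genes in each 0 h library, on a log axis, with Ishikawa cells in blue and T-47D cells in orange 1 point per library, and an open triangle for the library without a BMP7 count. The 2 lines do not overlap for any gene, and BAMBI is near 150 CPM in T-47D cells and under 1 CPM in Ishikawa cells.

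After 2 h of E2, ID1, ID3 and SMAD6 were lower in both lines, and ID2, BMP4 and BAMBI were lower in T-47D cells. In Ishikawa cells 3 of the 8 members tested, BMP7 being too low for a test, were lower at 2 h, where 1.74% of all 15787 genes tested were lower. In T-47D cells 6 of 9 were lower, where 4.40% of 15594 genes were. The members' median log2 fold change was -0.55 for Ishikawa and -0.68 for T-47D, beside all-gene medians of -0.0023 and -0.0094. Counting libraries only, both 2 h libraries lay below both 0 h libraries for 9 of 9 members in T-47D cells (27.5% of all genes tested) and for 6 of 8 in Ishikawa cells (24.0%). At 4 h, 2 of 8 members were lower for Ishikawa (6.60% of all genes tested) and 6 of 9 for T-47D (10.4%). At 8 h, 3 of 8 were lower for Ishikawa (10.1%) and 7 of 9 for T-47D (14.3%). With the late Ishikawa libraries joined, 5 of 8 members passed, ID4 as higher and the others as lower. The share of all genes that passed in that joined fit was not computed, so the count cannot be set against a background. ID4 was the 1 member that passed as higher at any time, at 8 h in Ishikawa cells, where 12.0% of all genes tested were higher. The 2, 4 and 8 h comparisons of a line share their 0 h libraries.

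ID1, on chromosome 20 of GRCh37 from 30193086 to 30194318, gave the lowest fold change of the tested ID genes at 2 h in Ishikawa cells. Its Ishikawa libraries stood at 288 and 271 CPM before E2, and the pairs of 2, 4 and 8 h at 157 and 158, 190 and 197, then 194 and 182. Every treated library was below both 0 h libraries, with the 2 h pair lowest. The log2 fold changes were -0.83 at 2 h (SE 0.06, adjusted p = 1.44e-07), -0.53 at 4 h and -0.57 at 8 h, and -0.55 with the 4 h and 8 h libraries joined. In T-47D cells ID1 stood at 63.2 and 69.6 CPM before E2, and the pairs of 2, 4 and 8 h at 40.4 and 42.2, 46.1 and 47.6, then 43.8 and 37.0. Again no treated library reached the 0 h level, and the mean was 62.2%, 70.6% and 60.8% of it at the 3 times. The log2 fold changes were -0.68 (SE 0.07, adjusted p = 2.24e-06), -0.50 and -0.72.

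ID3, on the minus strand of chromosome 1 from 23884417 to 23885992, was lower at 2 h in both lines and then took different courses. In Ishikawa cells it stood at 52.6 and 48.8 CPM before E2, and the pairs of 2, 4 and 8 h at 32.8 and 29.3, 45.3 and 41.9, then 43.4 and 42.1. The 2 h libraries were well below the others, and the later ones lay between them and the 0 h libraries. The log2 fold change was -0.71 at 2 h (SE 0.08, adjusted p = 2.45e-05), -0.22 at 4 h (adjusted p = 0.0701) and -0.25 at 8 h (adjusted p = 0.0311). The 8 h call was lost when any 1 of the 4 libraries at 0 h and 8 h was left out, with values of -0.30 to -0.19, whereas the joined 4 h and 8 h libraries gave -0.23 (adjusted p = 0.0141). In T-47D cells ID3 stood at 105 and 113 CPM before E2, and the pairs of 2, 4 and 8 h at 73.8 and 75.9, 64.6 and 66.2, then 64.9 and 58.8. There the later libraries were below the 2 h ones, with log2 fold changes of -0.54, -0.73 and -0.81 (SE 0.06 at each time, adjusted p = 5.42e-09 at 8 h).

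ID2, on chromosome 2 from 8818975 to 8824591, was lower in T-47D cells and did not pass in Ishikawa cells. The T-47D libraries stood at 27.5 and 25.0 CPM before E2, and the pairs of 2, 4 and 8 h at 15.5 and 14.9, 17.5 and 17.2, then 13.3 and 12.1. All treated libraries were far below the 0 h pair, and the 8 h pair, at 48.5% of the 0 h mean, was the lowest. The log2 fold changes were -0.79 (SE 0.08, adjusted p = 2.47e-06), -0.60 and -1.05 (adjusted p = 3.81e-08). In Ishikawa cells ID2 stood at 11.1 and 9.55 CPM before E2, and the pairs of 2, 4 and 8 h at 6.80 and 8.54, 8.01 and 8.21, then 8.85 and 9.91. The 8 h libraries overlapped the 0 h ones, and the log2 fold changes were -0.42 (adjusted p = 0.106), -0.34 (adjusted p = 0.104) and -0.14 (adjusted p = 0.501), and -0.24 (adjusted p = 0.161) with the late libraries joined. With both lines in 1 fit the 2 h (adjusted p = 0.0405) and 4 h (adjusted p = 0.0495) values passed. ID2 overlaps the antisense gene ID2-AS1 over 3020 bases, and the strand setting of the counting was not stated, so its reads could not be told from those of ID2-AS1.

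ID4, on chromosome 6 from 19837601 to 19842428, was higher at 8 h in Ishikawa cells and did not pass in T-47D cells. Its Ishikawa libraries stood at 69.1 and 61.4 CPM before E2, and the pairs of 2, 4 and 8 h at 56.4 and 58.0, 75.1 and 74.7, then 86.4 and 84.1. The 2 h libraries were below the 0 h range and the 4 h and 8 h libraries above it. The 8 h change passed, with a log2 fold change of 0.39 (SE 0.07, adjusted p = 8.93e-04), against -0.19 at 2 h (adjusted p = 0.141) and 0.20 at 4 h (adjusted p = 0.0586), and the joined 4 h and 8 h libraries gave 0.30 (adjusted p = 0.00566). The 2 h value passed without the second 0 h library and the 4 h value without the first. In T-47D cells ID4 stood at 3.01 and 4.49 CPM before E2, and the pairs of 2, 4 and 8 h at 2.52 and 2.53, 2.79 and 2.70, then 3.24 and 3.70. The 0 h libraries were far apart, and none of the changes passed, with log2 fold changes of -0.57 (adjusted p = 0.0751), -0.45 (adjusted p = 0.0980) and -0.11 (adjusted p = 0.710). Without the first 0 h library the 2 h value was -0.81 and the 4 h value -0.70, and both passed, whereas without the second they were -0.25 and -0.13. With both lines in 1 fit, the 2 h (adjusted p = 0.0326) and 4 h (adjusted p = 0.0472) values passed too. ID4 overlaps LNC-LBCS on the opposite strand over 1711 bases, with the same limit as ID2.

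**Figure D2:**
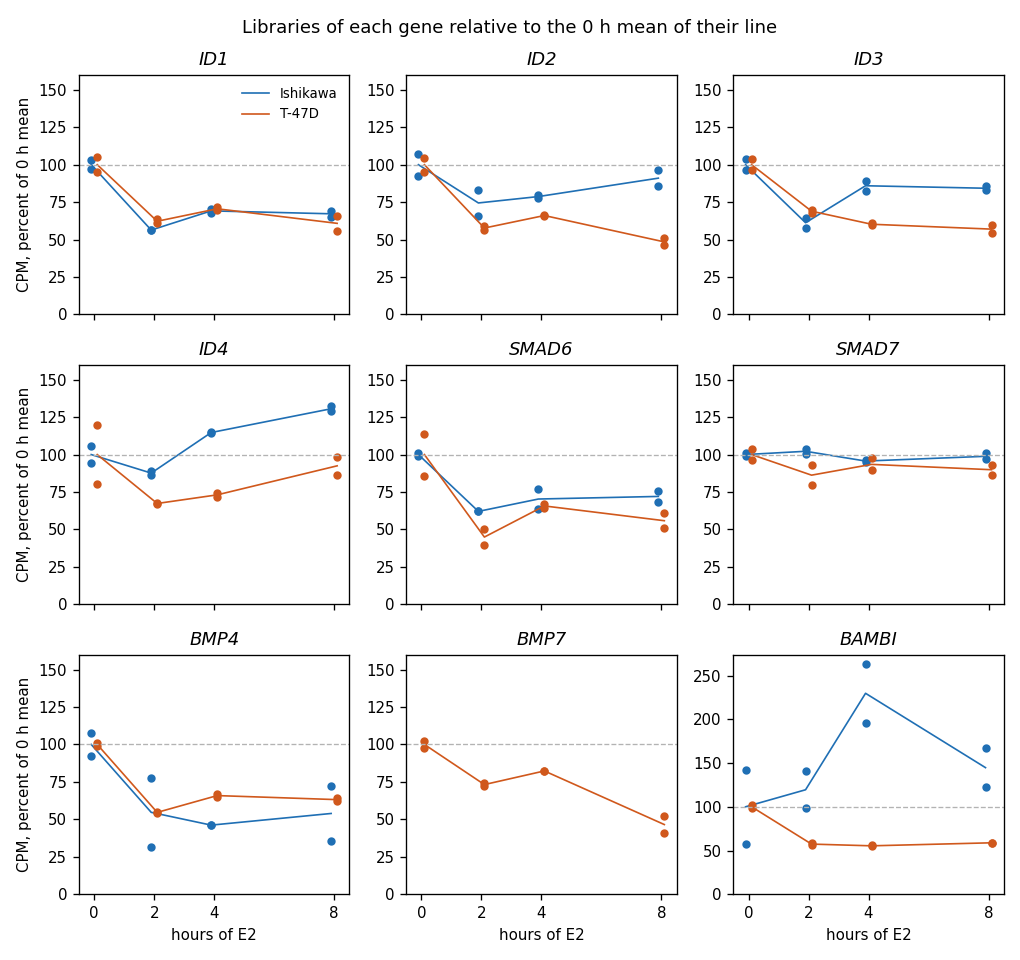
CPM of each library as a percent of the 0 h mean of its line, against hours of E2, with Ishikawa cells in blue and T-47D cells in orange and lines through the group means of 2 libraries; BMP7 is drawn for T-47D cells, since Ishikawa cells had 1 count of it in all, and BAMBI has a longer axis. ID1 and SMAD6 fall in both lines at 2 h, and the curves of ID3 and BAMBI lie apart at 4 and 8 h, where the line difference passed.

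SMAD6, on chromosome 15 from 66994574 to 67075187, was lower at every time in both lines, whereas SMAD7 moved little. SMAD6 preferentially inhibits BMP receptors, and SMAD7 inhibits BMP and TGF-β receptors alike. SMAD6 in Ishikawa cells stood at 32.8 and 32.0 CPM before E2, and the pairs of 2, 4 and 8 h at 20.1 and 20.1, 24.9 and 20.6, then 22.1 and 24.6. In T-47D cells it stood at 7.20 and 9.55 CPM before E2, and the pairs of 2, 4 and 8 h at 3.33 and 4.20, 5.40 and 5.61, then 4.26 and 5.09. In neither line did a treated library reach the 0 h range, and the 2 h mean was 62.1% of the 0 h mean for Ishikawa and 44.9% for T-47D. The log2 fold changes in Ishikawa cells were -0.69 (SE 0.10, adjusted p = 2.74e-04), -0.51 and -0.47, and -0.49 with the late libraries joined. Those in T-47D cells were -1.16 (SE 0.16, adjusted p = 6.65e-05), -0.60 (adjusted p = 0.00794) and -0.84. The T-47D 4 h value was -0.38 (adjusted p = 0.143) without the second 0 h library and also lost its call without the first 4 h library. SMAD6 overlaps the noncoding gene ENSG00000274995 on its own strand over 707 bases.

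SMAD7, on the minus strand of chromosome 18 from 46446223 to 46477335, had log2 fold changes of 0.03, -0.06 and -0.02 in Ishikawa cells (adjusted p = 0.842, 0.524 and 0.868), and of -0.04 with the late libraries joined. Its Ishikawa libraries all lay from 63.9 to 70.0 CPM. The T-47D ones lay from 11.0 to 14.3 CPM, with log2 fold changes of -0.22 (SE 0.10, adjusted p = 0.213), -0.10 and -0.15. Both T-47D libraries at 2 h and at 8 h were below the 0 h pair, and those at 4 h overlapped it.

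The ligand BMP4, on the minus strand of chromosome 14 from 54416454 to 54425479, was lower at every time in T-47D cells. The libraries stood at 39.2 and 38.6 CPM before E2, and the pairs of 2, 4 and 8 h at 21.3 and 21.2, 26.0 and 25.2, then 24.2 and 25.0. The replicates were close, and the 2 h libraries were the lowest of the 8. The log2 fold changes were -0.87 (SE 0.07, adjusted p = 4.07e-08), -0.60 and -0.66. The Ishikawa libraries of BMP4 held 71 and 84 counts at 0 h and 29 to 55 at the later times, or 0.530 to 1.30 CPM. All treated libraries were below the 0 h pair, but the log2 fold changes of -0.90 (SE 0.40, adjusted p = 0.260), -1.11 (adjusted p = 0.0825) and -0.92 (adjusted p = 0.110) did not pass. With the 4 h and 8 h libraries joined the value was -1.01 and passed (adjusted p = 0.0322). With both lines in 1 fit the 4 h (adjusted p = 0.0133) and 8 h (adjusted p = 0.0167) values passed. Without a filter the 2 h value (adjusted p = 0.0459) passed, as did those of 4 h and 8 h. The 4 h value passed without the first 8 h library, and the 8 h value was -1.49 and passed without the second 8 h library and was -0.46 without the first. BMP4 overlaps ENSG00000287156 on the opposite strand over 4091 bases.

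BMP7, on the minus strand of chromosome 20 from 55743809 to 55841697, was lower in T-47D cells at 8 h. The libraries stood at 5.31 and 5.04 CPM before E2, and the pairs of 2, 4 and 8 h at 3.85 and 3.73, 4.27 and 4.26, then 2.10 and 2.72. All treated libraries were below the 0 h pair, and the 8 h pair was lowest, at 46.5% of the 0 h mean. The log2 fold change was -0.45 at 2 h (adjusted p = 0.0771), -0.28 at 4 h (adjusted p = 0.203) and -1.10 at 8 h (SE 0.16, adjusted p = 3.62e-05). BMP7 overlaps BMP7-AS1 on the opposite strand over 995 bases.

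BAMBI, on chromosome 10 from 28966439 to 28971861, was lower at every time in T-47D cells and scarce in Ishikawa cells. The T-47D libraries stood at 154 and 149 CPM before E2, and the pairs of 2, 4 and 8 h at 85.5 and 88.5, 85.0 and 83.0, then 89.2 and 89.3. They fell into an upper pair at 0 h and 6 treated libraries close together, whose group means were 55.4% to 58.8% of the 0 h mean. The log2 fold changes were -0.80 (SE 0.05, adjusted p = 6.90e-10), -0.85 and -0.77. In Ishikawa cells the first BAMBI pair held 44 and 18 counts before E2, and the pairs of 2, 4 and 8 h held 40 and 36, 53 and 73, then 66 and 36. Both 4 h libraries were above both 0 h libraries, and the log2 fold change there was 1.20 (SE 0.39, adjusted p = 0.0536), against 0.24 at 2 h and 0.55 at 8 h. The 0 h libraries decided these values, since the 4 h change was 1.99 without the first and 0.69 without the second, and the 2 h change was 1.03 and -0.27. The 4 h change passed without the first 0 h library or either 8 h library, and with both lines in 1 fit (adjusted p = 0.00399). With the late libraries joined it was 0.90 (adjusted p = 0.0884).

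**Figure D3:**
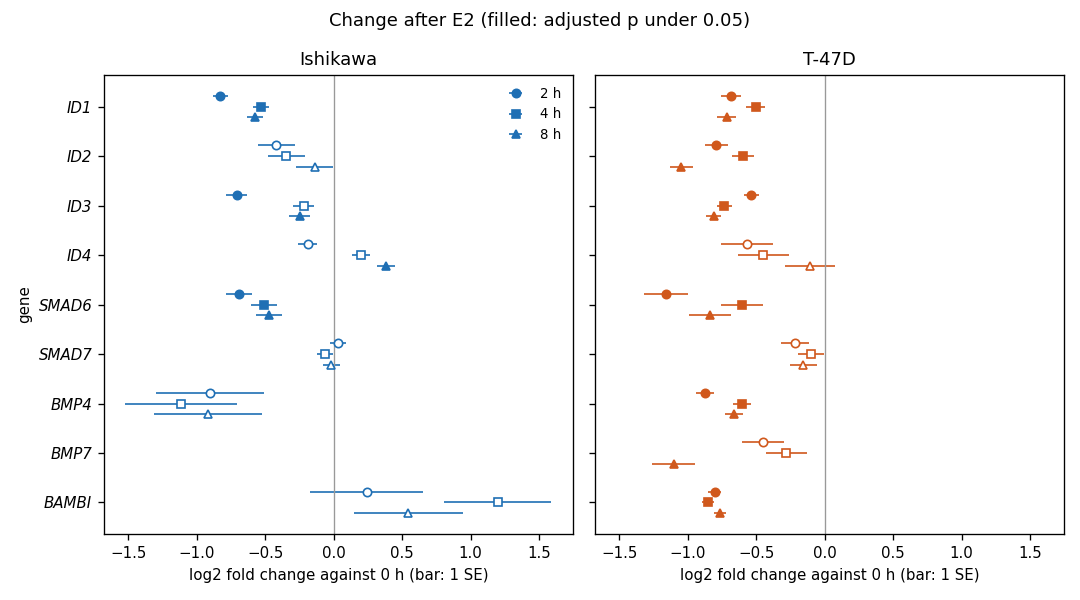
Log2 fold change of each gene against 0 h with bars of 1 SE, at 2 h (circles), 4 h (squares) and 8 h (triangles), in Ishikawa cells (left) and T-47D cells (right), filled where the adjusted p was under 0.05. No SMAD7 point is filled in either line, and all T-47D points lie below 0.

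Between treated time points, some members had returned part of the way and others had not. The 4 h and 8 h means of ID4 in Ishikawa cells, 74.9 and 85.3 CPM, lay above its 0 h mean of 65.3. In Ishikawa cells ID1 (log2 fold change 0.30, adjusted p = 0.0115), ID3 (0.49) and ID4 (0.39) were higher at 4 h than at 2 h, 3 of 8 members against 2.39% of all genes in either direction. The same 3 were higher at 8 h than at 2 h (0.25, 0.46 and 0.58), against 2.24% of all genes. Without the second 2 h library the count at 4 h against 2 h was 0 and that at 8 h against 2 h was 1. The 4 h calls of ID1 and ID4 were also lost without the first 2 h or the first 4 h library, that of ID3 without the first 4 h library, and the 8 h call of ID1 without any 1 of the 4 libraries compared. ID4, at 0.19 (adjusted p = 0.986), was the 1 member with an unadjusted p under 0.05 between 4 h and 8 h, and DESeq2 called 0 members there. In T-47D cells BMP4 was higher at 4 h than at 2 h by 0.27 (adjusted p = 0.0317; 3.40% of all genes passed), a call lost without any 1 of the libraries of those times. At 8 h against 2 h, BMP4 was higher by 0.21 (adjusted p = 0.0421), ID3 lower by -0.27 and BMP7 lower by -0.65, 3 of 9 members where 16.8% of all genes passed. The BMP4 call was lost without any 1 of the 6 treated libraries and that of BMP7 without the first 2 h or the first 8 h library, which left -0.49 in the second case. At 8 h against 4 h, ID2 was lower by -0.45 (adjusted p = 0.00567) and BMP7 by -0.82 (adjusted p = 0.00614), where 3.42% passed, and BMP7 lost its call without the first 8 h library.

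Whether the change with E2 differed between the lines was tested as the interaction of line and time. At 2 h, 0 of the members passed by edgeR, 4 had an unadjusted p under 0.05 and DESeq2 called 1, BAMBI, while 2.67% of all genes passed. Its difference was -1.01 (SE 0.31, adjusted p = 0.114), and -1.84 with a call by edgeR without the first Ishikawa 0 h library. At that time the differences, T-47D minus Ishikawa, were 0.16 for ID1 (SE 0.10), 0.19 for ID3 (SE 0.10) and -0.45 for SMAD6 (SE 0.19, adjusted p = 0.385). At 4 h, ID3 (-0.50, SE 0.10, adjusted p = 0.00238), ID4 (-0.63, SE 0.17, adjusted p = 0.0286) and BAMBI (-2.04, SE 0.28, adjusted p = 5.35e-05) differed, against 6.03% of all genes. At 8 h, ID2 (-0.91, SE 0.16, adjusted p = 6.33e-04), ID3 (-0.57, SE 0.10, adjusted p = 4.71e-04) and BAMBI (-1.33, SE 0.29, adjusted p = 0.00477) differed, against 10.0%. In each of these the T-47D change was the lower one. With the 4 h and 8 h libraries of each line joined, ID3 (-0.53), ID4 (-0.56) and BAMBI (-1.69) passed and ID2 did not (-0.56, adjusted p = 0.0720). The ID4 difference at 4 h was -0.33 without the second T-47D 0 h library and lost its call without any 1 of 5 libraries, and the BAMBI difference at 8 h was -0.82 (adjusted p = 0.0566) without the second Ishikawa 0 h library, -2.15 without the first, and lost its call without the first Ishikawa 8 h library. At 8 h the ID4 difference was -0.49 (adjusted p = 0.0673) and passed without the first 0 h library of either line. BMP7 gives no value here, because Ishikawa cells had 1 count.

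**Figure D4:**
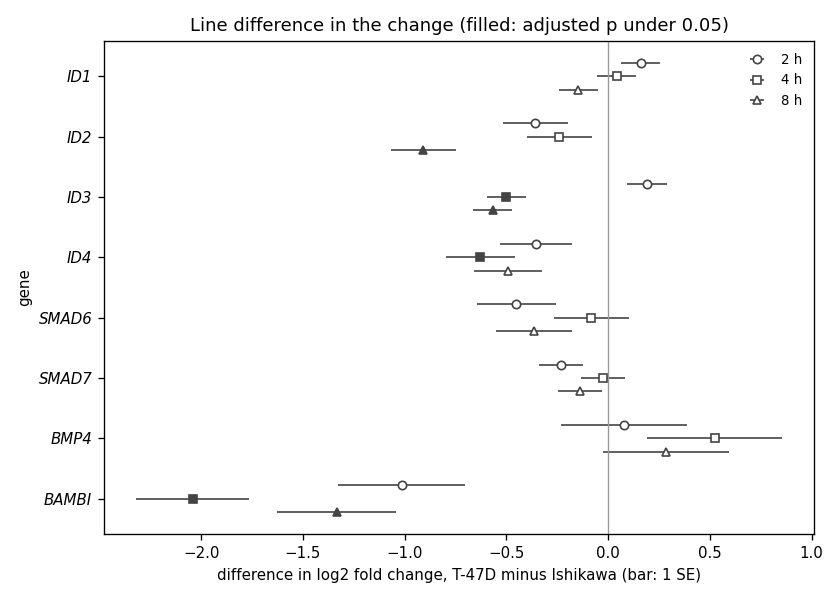
T-47D minus Ishikawa difference of the log2 fold change of 8 genes at 2 h (circles), 4 h (squares) and 8 h (triangles) with bars of 1 SE, filled where the adjusted p was under 0.05. The filled points are ID3, ID4 and BAMBI at 4 h and ID2, ID3 and BAMBI at 8 h, all below 0.

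Members varied together to different degrees across the 8 libraries of a line, described here by Pearson's r of log2 CPM, in which the libraries share their time groups. In Ishikawa cells ID1 followed SMAD6 (r = 0.92) and ID3 (r = 0.87) more closely than ID2 (r = 0.74), BMP4 (r = 0.62) or ID4 (r = 0.09). With SMAD7 (r = -0.14) and BAMBI (r = -0.28) r was below 0 there. In T-47D cells ID1 followed ID2 (r = 0.95), BMP4 (r = 0.92), ID3 and BAMBI (r = 0.90 each) and SMAD6 (r = 0.87). It followed SMAD7 (r = 0.72), BMP7 (r = 0.69) and ID4 (r = 0.47) less closely. Among 11052 genes of at least 5 CPM in Ishikawa cells, those most like ID1 were PLK2 (r = 0.993), CTGF (0.988), CITED2 (0.980), FAM84B (0.979) and JAG1 (0.978), and SMAD6 ranked 47. Among 10934 such genes in T-47D cells they were PAQR7 (r = 0.995), AJUBA (0.984), PVRL4 (0.982), CDC42EP3 (0.982) and FAM46B (0.980), and ID2 ranked 44.

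Of 62 other genes of the pathway, 46 could be tested for Ishikawa and 40 for T-47D, and they moved in both directions. In Ishikawa cells 4, 5 and 8 were higher at 2, 4 and 8 h, where 2.61%, 7.66% and 12.0% of all genes were, and 1, 4 and 3 were lower, where 1.74%, 6.60% and 10.1% were. In T-47D cells 5, 9 and 7 were higher, where 4.90%, 11.1% and 15.4% of all genes were, and 3, 7 and 11 were lower, where 4.40%, 10.4% and 14.3% of all genes were. Their median log2 fold change ranged from 0.0051 to 0.049 for Ishikawa and from -0.065 to -0.034 for T-47D. The line difference could be tested for 50 of them. At 2, 4 and 8 h, 1, 1 and 1 passed with the T-47D change higher and 4, 3 and 7 with it lower. Of all genes, 2.67%, 6.03% and 10.0% passed in either direction.

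Among 12 further ligand genes, 5 were tested for Ishikawa and 2 for T-47D. BMP5 was lower at 4 h in Ishikawa cells (-0.94, adjusted p = 0.00838), where 6.60% of all genes were. Among 11 receptors and coreceptors, the type I receptor BMPR1B was lower in T-47D cells at all times (-0.81, -0.62 and -0.48), and the coreceptors ENG (1.50 and 1.54) and RGMB (0.34 and 0.43) were higher in Ishikawa cells at 4 and 8 h, where the receptor ACVR1 was lower (-0.29 and -0.36). ENG rose from 0.906 ± 0.206 to 2.57 ± 0.234 CPM at 4 h in Ishikawa cells. Of 10 receptors and coreceptors tested for Ishikawa, 0, 2 and 2 were higher at 2, 4 and 8 h (2.61%, 7.66% and 12.0% of all genes). Lower there were 0, 1 and 1 (1.74%, 6.60% and 10.1%). Of 9 tested for T-47D, 1, 2 and 3 were lower (4.40%, 10.4% and 14.3%) and 0 were higher. Of 10 tested for a line difference, ENG (-0.98, -1.70 and -1.66) and RGMB (-0.33, -0.38 and -0.62) passed at each time. Of all genes, 2.67%, 6.03% and 10.0% passed that test. SMAD1 and SMAD5 were higher at 8 h in both lines, by 0.28 and 0.29 for Ishikawa and by 0.29 and 0.24 for T-47D.

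Extracellular antagonists bind BMPs and keep them from their receptors. Among 13 tested for a line difference, the 2 that passed, both at 8 h, were FSTL1 (-0.52, adjusted p = 7.00e-04) and FSTL3 (-0.45, adjusted p = 0.0295). At 8 h 10.0% of all genes passed that test. Of 16 listed, 10 were tested in Ishikawa cells, where SOSTDC1 was lower at all times (-0.43, -0.41 and -0.32) and GREM1 at 4 and 8 h (-0.77 and -0.73). That made 1, 2 and 2 lower at 2, 4 and 8 h, beside 1.74%, 6.60% and 10.1% of all genes. Of the 8 tested in T-47D cells, 2, 3 and 3 were higher, beside 4.90%, 11.1% and 15.4% of all genes. Lower were 0, 1 and 3, beside 4.40%, 10.4% and 14.3%. Not all of them are named here. BMPER (0.82, 0.79 and 1.09) was higher at all times, and FSTL1 was lower at 4 and 8 h (-0.27 and -0.57). TWSG1, which can help or hinder BMPs, was higher at 8 h in both lines (0.33 and 0.34).

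Among 9 intracellular regulators, TOB1, an antiproliferative protein that binds SMADs, was higher at all times in both lines. It went from 33.8 ± 3.29 to 107 ± 1.71 CPM at 2 h in Ishikawa cells (log2 fold change 1.66, adjusted p = 7.06e-09) and from 233 ± 2.68 to 384 ± 1.48 CPM in T-47D cells (0.72, adjusted p = 1.16e-09). SKIL, a SMAD corepressor, was higher at all times in Ishikawa cells (0.94, 0.58 and 0.76) and lower at 8 h in T-47D cells (-0.31). PMEPA1, which sequesters receptor-activated SMADs, was lower at 4 and 8 h in T-47D cells (-0.30 and -0.50). Among these 9 regulators the line difference passed at each time for SKIL (-0.78, -0.75 and -1.07) and at 2 h for TOB1 (-0.92). At 8 h it also passed for SMURF2 (-0.32) and PMEPA1 (-0.41). Of all genes, 2.67%, 6.03% and 10.0% passed that test at 2, 4 and 8 h. Of the E proteins that ID proteins bind, TCF3 was lower at 2 and 4 h (-0.17 and -0.16) and TCF4 at 4 and 8 h (-0.74 and -0.61) in T-47D cells.

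Of 6 other BMP target genes tested for a line difference, RUNX2 passed at each time (1.72, 1.77 and 1.74), beside 2.67%, 6.03% and 10.0% of all genes. MSX1, a homeobox gene with 346 ± 9.27 CPM at 0 h in Ishikawa cells, was higher there at all times (0.31, 0.36 and 0.36). MSX2, its relative with 127 ± 0.982 CPM at 0 h in T-47D cells, was lower there at all times (-0.65, -0.50 and -0.55), and RUNX2, a bone transcription factor also known from breast cancer, was higher (0.86, 1.21 and 1.39). In the TGF-β and activin branch, a list of 14 genes of which 13 were tested in each line, 5 were lower at each time in T-47D cells (TGFB2, TGFB3, ACVR1B, INHBB and SMAD3), beside the 4.40%, 10.4% and 14.3% of all genes, with values from -0.21 for ACVR1B at 2 h to -0.79 for SMAD3 at 8 h, and TGFB1 was higher at 8 h (1.00). In Ishikawa cells 3, 2 and 3 of the 13 were higher at 2, 4 and 8 h, beside 2.61%, 7.66% and 12.0% of all genes. Lower there were 2, 2 and 3, beside 1.74%, 6.60% and 10.1%. Among them, TGFB2 was lower at all times (-0.56, -1.14 and -1.02), and INHBB, an activin subunit, was higher at 2 h (1.76) and 8 h (1.38).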

How the data were processed

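Poly(A) RNA libraries were directional. Per the submitters' notes and methods, HISAT2 (build hg19), SAMtools and featureCounts (UCSC Known Genes) were used, and the authors deposited raw counts per gene. Versions, the strand setting and the treatment of read pairs are not given in the sources used here. Libraries were grouped by the line and time of their labels.

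Here, edgeR 4.0.16 in R 4.3.3 was run on these counts. Genes were kept by filterByExpr (minimum count 10, minimum total 15), libraries scaled by TMM, and each line fitted with time as a factor with 4 levels and no block. Contrasts used the quasi-likelihood F-test with Benjamini-Hochberg adjustment over all genes tested, called at an adjusted p under 0.05. Baseline and interaction tests used 1 fit of all 16 libraries. Standard errors were derived from the F statistic as the absolute fold change over its root. The common biological variation (BCV) was 6.45% for Ishikawa and 5.02% for T-47D. Log2 CPM used a prior count of 2. Replicates differed by more than sampling noise (chi-square per gene 3.70 to 11.4). The script was tested on simulated data.

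The members and lists were chosen with earlier results of these data known. The text names the 9 members, listed genes that passed or were abundant, GREB1, and the 5 genes most like ID1. Not every gene the rule selects is described, and 1 is not reported here. Positions and exon lengths came from GENCODE on GRCh37 and promoters from RefSeq. Alternatives were DESeq2 1.42.0, RLE scaling, a stricter adjusted p of 0.01, a filter of 10 counts in each library or none, other sets of libraries in the fit, late libraries joined, a replicate block, the longest transcript, and each library left out.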

Additional observations from a re-analysis of the deposited data

Results flagged for a closer look

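The change after E2 differed between the lines, by the interaction test with edgeR, for 6 results on 4 genes. T-47D minus Ishikawa, the difference in log2 fold change at 4 h was -0.50 for ID3, -0.63 for ID4 and -2.04 for BAMBI. At 8 h it was -0.91 for ID2, -0.57 for ID3 and -1.33 for BAMBI. The BAMBI values rest on 18 to 73 counts per Ishikawa library. No group was large enough for a search for single libraries far from the rest.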

How the results depend on the processing

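Of 760 values of single genes under alternatives that kept all libraries, 712 kept direction and side of the threshold, 31 newly passed, 16 no longer passed and 1 reversed. That was ID1, line difference at 4 h, at -0.047 with late libraries joined (0.042 otherwise, neither called). For 1032 values with 1 library left out the numbers were 967, 12, 39 and 14. A lone library left in a group is assumed to vary like the others. The cause of these moves was not tested. None of the reversals was called. For each result with a reversal, the range of all its values with 1 library left out follows. It was -0.27 to 1.03 for BAMBI in Ishikawa cells at 2 h. The BMP4 line difference spanned -0.49 to 0.76 at 2 h and -0.23 to 0.79 at 8 h. Line differences at 4 h spanned -0.024 to 0.11 for ID1, -0.27 to 0.13 for SMAD6 and -0.090 to 0.031 for SMAD7. At 8 h, ID4 in T-47D cells spanned -0.36 to 0.20, and SMAD7 in Ishikawa cells -0.052 to 0.014.

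Members called in Ishikawa cells at 2 h numbered 5 without a filter (3 otherwise). At 4 h (2 otherwise) they numbered 5 with late libraries joined, 6 with both lines in 1 fit, 5 without a filter, 4 with only the time points compared and 2 to 4 with a library left out. The line difference at 2 h (0 otherwise) gave 1 by DESeq2, 1 without a filter and 0 to 1 with a library left out. In T-47D cells, 4 h against 2 h (1 otherwise) gave 0 at an adjusted p under 0.01, 0 with both lines in 1 fit, 2 by DESeq2, 3 without a filter, 4 with only the time points compared and 0 to 3 with a library left out. With both lines in 1 fit, 8 h against 2 h gave 1 (3 otherwise) and 8 h against 4 h gave 1 (2 otherwise). With a library left out, T-47D 8 h against 2 h gave 1 to 4, and Ishikawa 4 h and 8 h against 2 h gave 0 to 3 and 1 to 3.

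Replicate numbers did not pair the libraries (r of deviations -0.115 to 0.053 in Ishikawa cells and -0.055 to 0.060 in T-47D cells). Under the replicate block, the T-47D comparison of 4 h against 2 h gave 2 members, BAMBI passed at 4 h in Ishikawa cells (1.26) and BMP4 did not pass at 8 h against 2 h in T-47D cells (0.21). Per kb of the longest transcript, levels at 0 h in CPM per kb were 80.5 for BAMBI, 20.1 for BMP4, 1.29 for BMP7, 12.9 for ID2, 114 for ID3, 1.61 for SMAD6 and 4.14 for SMAD7 in T-47D cells, and 0.866 for BMP4, 53.4 for ID3, 6.23 for SMAD6 and 20.1 for SMAD7 in Ishikawa cells.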
